A study of Saccharomyces cerevisiae with 19 samples.

Results

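RNA polymerase I and RNA polymerase III make the rRNA, tRNA and other small RNAs of the ribosome and of translation, and 31 genes of budding yeast that encode their subunits and dedicated initiation factors are described here across a wild-type and an sch9 mutant culture. The genes were chosen by name. They hold 7 subunits found in RNA polymerase I alone, 2 shared by polymerases I and III, 10 found in polymerase III alone, 4 initiation factors of polymerase I, the 6 subunits of TFIIIC and 2 subunits of TFIIIB. All 31 were measured, each by 1 probe set, among 5449 genes in all.

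Affymetrix yeast arrays measured total RNA of Saccharomyces cerevisiae, and each strain had 1 array at each time. The wild type had 10 arrays, at steps of 12 h from 12 to 120 h after dilution of a saturated overnight culture in SDC medium. The sch9 mutant, labelled as a deletion of the SCH9 gene, had 9 arrays from 12 to 108 h, since the submitters set its 120 h array aside after a quality check. The sources used here state no strain background, mating type, method of deletion or number of independent clones, and no treatment was applied to either strain. The labels name no replicate culture. Each p-value therefore measures the spread over time points and not over cultures, and precision is limited by how many arrays there are.

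RNA polymerase I transcribes the large rRNA precursor in the nucleolus, with Rrn3 and the core factor placing it on the promoter. RNA polymerase III transcribes tRNA genes and the smallest rRNA gene: TFIIIC binds the promoter inside the gene and loads TFIIIB, which recruits the polymerase. Sch9 is a protein kinase of nutrient signalling downstream of TORC1 that promotes transcription by both enzymes, in part by phosphorylating Maf1, the repressor of polymerase III. Yeast leaving growth makes less of both classes of RNA, and the genes for the enzymes belong to the large ribosome biogenesis regulon.

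SCH9 itself read lower in the mutant arrays at 8 of 9 shared times. The mean of these log2 differences was -0.52 ± 0.39 (SD, n = 9) with a two-sided exact permutation p = 0.0078. In the values as deposited it was -0.39 ± 0.63 (SD, n = 9) with an exact permutation p = 0.109. The probe set gave signals of 10.07 to 10.59 in the mutant arrays, and no source used here states whether it lies in the deleted part. The SCH9 level is therefore no check of the labels. The 8 stationary phase markers were all lower at 12 h than at 24 to 48 h in both strains (limma, adjusted p under 0.05), with median log2 differences of -2.49 in the wild type and -4.32 in the mutant. Over all genes 28.7% and 27.2% were lower at 12 h. The difference between these steps passed for 6 of the 8, all with the larger step in the mutant, while 13.0% of all genes passed in that direction. At 12 h itself all 8 read lower in the mutant, such as HSP26 at 10.53 against 12.90 and HSP12 at 11.89 against 12.99. With 1 array per strain at 12 h, culture state and strain cannot be told apart at that time. Of the 14 mating type and meiosis markers, 2 were higher and 6 lower in the mutant over the shared times, against 32.4% and 26.8% of all genes. The list mixes genes of both mating types, haploid cells and meiosis, so the count speaks for no single cell type. Signals are relative within each RNA sample, so less of an RNA per cell and more of other RNA cannot be told apart.

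Values below are log2 signals after quantile normalization, and differences are on the log2 scale. A gene passed at a limma adjusted p under 0.05 over all 5449 genes. The step after 12 h is the 12 h array minus the mean of the 24, 36 and 48 h arrays of the same strain, so that a positive step means a level that was higher at 12 h. Each strain has 1 array at 12 h, which the fit assumes to vary like the later ones. No step can therefore be fitted without 12 h. Leaving out 60 h or any later time changes the error of a step and not its estimate.

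Most genes for the subunits of polymerase I were higher at 12 h than at 24 to 48 h in both strains. For the subunits of polymerase III this held for most in the mutant but not in the wild type. The polymerase I subunits had the largest median drop among the groups of 4 or more genes. In the wild type 16 of the 31 genes were higher at 12 h than at 24 to 48 h, none was lower and 15 did not pass, while 33.6% of all genes tested were higher and 28.7% lower. In the labelled mutant 21 were higher, 3 were lower and 7 did not pass, against 32.7% and 27.2% of all genes. The median step of the 31 genes was 0.51 in the wild type and 0.99 in the mutant, against 0.06 and 0.04 over all genes. With the values as deposited the median over all genes moved to -0.39 in the wild type, and the 31 genes lay 0.45 above it, as with quantile normalization. In those values 9 genes were higher in the wild type, after RET1, RPC82, RPC53, RPC31, RRN6, TFC4 and TFC8 no longer passed, and 8 were lower, RPO31, RPC11, RRN3, RRN7, TFC3, TFC6, BRF1 and BDP1. There 23.0% of all calls were of genes higher at 12 h, against 54.0% after quantile normalization.

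**Figure D1:**
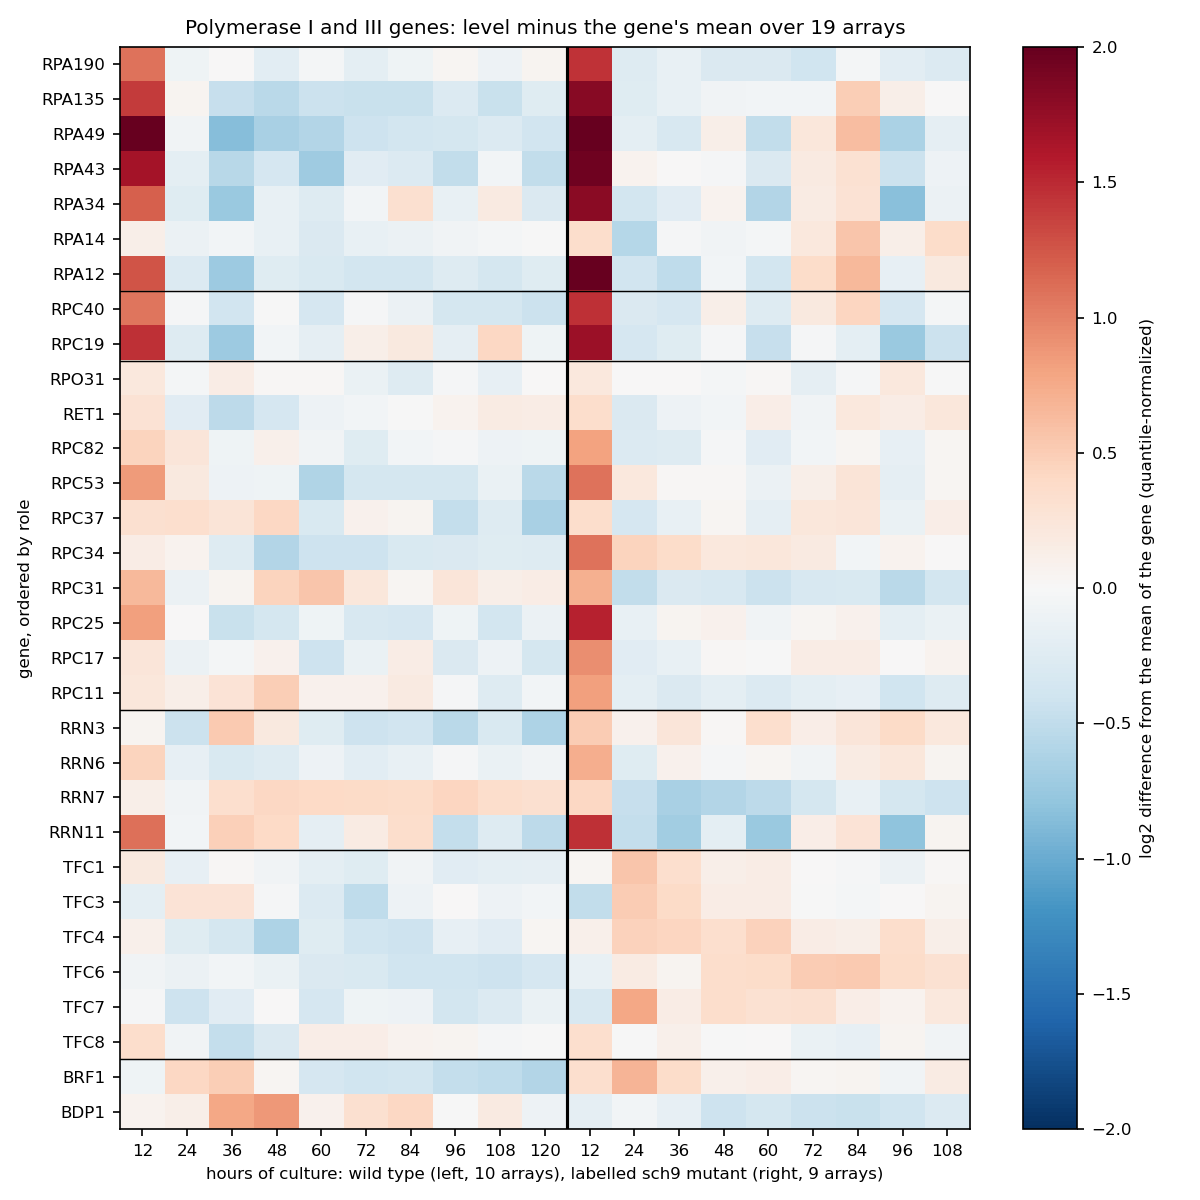
Heat map of the 31 genes, in rows ordered by role, over the 10 wild-type arrays (left) and the 9 arrays of the labelled sch9 mutant (right), in columns by hours of culture. Colour gives the log2 signal minus the gene's mean over the 19 arrays, limited to a range of -2 to 2. The 12 h columns are dark red for most subunits of polymerase I and for both shared subunits, and pale for the subunits of TFIIIC.

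The 12 h array alone lay above all 9 later wild-type arrays for 22 of the 31 genes and below all of them for 0, against 38.5% and 31.3% of all genes. In the mutant it lay above all 8 later arrays for 23 genes and below all of them for 4, against 39.8% and 34.0% of all genes. The 22 wild-type genes included all 7 subunits of polymerase I, both shared subunits and 8 of the 10 subunits of polymerase III. They included 3 of the 6 TFIIIC genes and neither TFIIIB gene. In the mutant all 10 polymerase III subunits and all 4 initiation factors of polymerase I stood above their later arrays, and the 4 genes below theirs were TFC3, TFC4, TFC6 and TFC7, all of TFIIIC. RPA14 was the 1 polymerase I subunit whose 12 h mutant level, 11.34, was passed later, by 11.54 at 84 h and 11.36 at 108 h.

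RPA49 had the largest step of the 31 genes in both strains. It encodes a subunit that, paired with Rpa34, resembles the general factor TFIIF and helps the enzyme start and elongate. Its wild-type signal was 10.78 at 12 h and between 7.70 and 8.48 later, with a median of 8.18. The mutant signal was 11.11 at 12 h and between 7.92 and 9.17 later, with a median of 8.36. The 12 h arrays stood above all the others, and the later ranges of the strains overlapped. The step was 2.75 ± 0.34 (SE, adjusted p = 7.35e-06) in the wild type, a 6.74-fold difference, and 2.69 ± 0.34 (SE, adjusted p = 8.32e-06) in the mutant, a 6.44-fold difference. RPA34 went from 11.23 at 12 h to a range of 9.30 to 10.36 (median 9.88) in the wild type and from 11.85 to a range of 9.21 to 10.33 (median 9.87) in the mutant. Its steps were 1.57 ± 0.35 and 1.99 ± 0.35 (SE, adjusted p = 0.00126 and 0.000187).

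Both catalytic subunits of polymerase I dropped in both strains. RPA190, the largest subunit, was 11.12 at 12 h and 9.82 to 10.09 later in the wild type (median 9.96). Mutant RPA190 was 11.49 and then 9.64 to 10.002 (median 9.77), so that the 12 h array was far from a narrow later range in both strains. The steps were 1.18 ± 0.13 (SE, adjusted p = 3.36e-06) and 1.69 ± 0.13 (SE, adjusted p = 8e-08). RPA135, which forms the active centre together with RPA190, went from 11.91 to between 9.98 and 10.57 (median 10.07) in the wild type and from 12.34 to between 10.27 and 11.01 (median 10.46) in the mutant. Its steps were 1.71 ± 0.22 and 1.98 ± 0.22 (SE, adjusted p = 9.87e-06 and 2.34e-06).

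The stalk of polymerase I, made of Rpa43 and Rpa14, was split. RPA43, whose product contacts Rrn3, went from 9.88 to between 7.50 and 8.15 (median 7.87) in the wild type and from 10.16 to between 7.78 and 8.51 (median 8.20) in the mutant, with steps of 2.03 ± 0.24 and 1.94 ± 0.24 (SE). RPA14 went from 11.10 to between 10.71 and 10.98 (median 10.88) in the wild type, a step of 0.22 ± 0.21 that did not pass (SE, adjusted p = 0.379). In the mutant its step of 0.57 ± 0.21 passed (SE, adjusted p = 0.0289) and no longer did without 24 h, at 0.39 (adjusted p = 0.0678), or against all later times, at 0.28 (adjusted p = 0.218). RPA12, which carries the RNA cleavage activity of the enzyme, went from 10.70 to between 8.73 and 9.20 (median 9.15) in the wild type. Mutant levels went from 11.60 to between 8.93 and 10.10 (median 9.34). Its steps were 1.66 ± 0.30 and 2.46 ± 0.30 (SE, adjusted p = 0.000194 and 5.12e-06), and the later arrays of neither strain came near the 12 h level.

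Both subunits shared by polymerases I and III, which form the platform on which the 2 largest subunits assemble, dropped with the polymerase I genes. RPC40 went from 11.36 to between 9.87 and 10.28 (median 9.96) in the wild type and from 11.76 to between 9.96 and 10.73 (median 10.15) in the mutant. RPC19 went from 11.55 to between 9.36 and 10.51 (median 9.997) in the wild type and from 11.80 to between 9.35 and 10.07 (median 9.80) in the mutant. The 12 h arrays stood clear of all later arrays in both strains. The steps were 1.21 ± 0.24 and 1.63 ± 0.24 for RPC40 and 1.81 ± 0.27 and 1.91 ± 0.27 for RPC19 (SE, wild type and mutant).

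**Figure D2:**
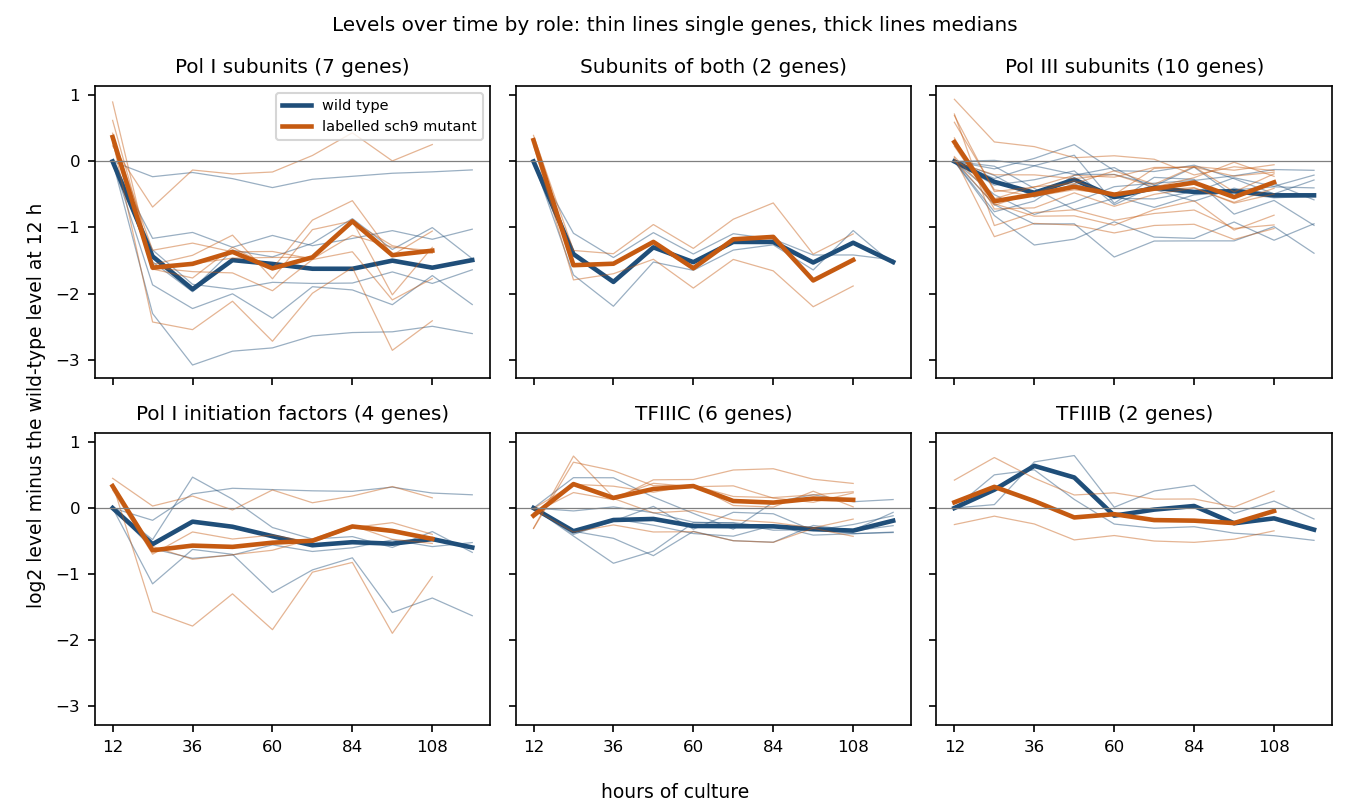
Levels by role over hours of culture, as log2 signal minus the wild-type signal of the same gene at 12 h. Thin lines are single genes, thick lines the medians of the group, blue the wild type (10 arrays) and orange the labelled sch9 mutant (9 arrays). Lines of the polymerase I and shared subunits drop after 12 h by 1 to 3 units except RPA14, those of polymerase III drop less, and the TFIIIC median of the mutant lies above that of the wild type from 24 h on.

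Polymerase III subunits dropped less than those of polymerase I in the wild type, with a median step of 0.38 against 1.66, and in the mutant, with 0.99 against 1.98. The difference between these medians was not tested, and probe sets can differ in how strongly they respond. Of the 10, 5 were higher at 12 h in the wild type, RET1, RPC82, RPC53, RPC31 and RPC25, against 33.6% of all genes. In the mutant 9 were higher, all but RPO31, against 32.7%.

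The largest polymerase III subunit was the only one of the 10 that passed in neither strain after quantile normalization. RPO31, the catalytic counterpart of RPA190, was 10.85 at 12 h in both strains, and later between 10.39 and 10.79 in the wild type (median 10.61) and between 10.47 and 10.84 in the mutant (median 10.64). Its steps of 0.17 ± 0.13 and 0.22 ± 0.13 did not pass (SE, adjusted p = 0.255 and 0.165), with 95% intervals of -0.10 to 0.45 and -0.06 to 0.49. In the deposited values its wild-type step was -0.48. RET1, the other catalytic subunit, went from 11.49 to between 10.69 and 11.37 (median 11.16) in the wild type and from 11.57 to between 10.93 and 11.44 (median 11.25) in the mutant. Its steps were 0.64 ± 0.13 and 0.50 ± 0.13 (SE, adjusted p = 0.000698 and 0.00433), and the wild-type step was 0.0063 in the deposited values (adjusted p = 0.973).

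RPC25, the polymerase III counterpart of RPA43 in the stalk, had the largest step among these 10 genes. It went from 10.06 to between 8.79 and 9.24 (median 8.91) in the wild type and from 10.78 to between 9.04 and 9.33 (median 9.22) in the mutant. The steps were 1.09 ± 0.17 and 1.54 ± 0.17 (SE, adjusted p = 5.65e-05 and 2.1e-06), and the 12 h arrays stood clear of the later ones. Its stalk partner RPC17 went from 8.91 to between 8.26 and 8.83 (median 8.55) in the wild type, a step of 0.26 ± 0.17 that did not pass (SE, adjusted p = 0.208). In the mutant RPC17 went from 9.61 to between 8.46 and 8.83 (median 8.70), a step of 1.05 ± 0.17 (SE, adjusted p = 0.00011).

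The trimer of Rpc82, Rpc34 and Rpc31 opens the promoter and is specific to polymerase III. RPC82 had a wild-type step of 0.36 ± 0.15 (SE, adjusted p = 0.0457), which was -0.051 in the deposited values. Without 36 h the step was 0.28 and did not pass (adjusted p = 0.135). It also did not pass without 72, 84, 96, 108 or 120 h in turn, where the estimate stayed at 0.36 (adjusted p of up to 0.0616). In the mutant RPC82 went from 9.95 to between 8.87 and 9.19 (median 9.03), a step of 0.99 ± 0.15 (SE, adjusted p = 4.53e-05). RPC31 had steps of 0.52 ± 0.19 in the wild type and 1.07 ± 0.19 in the mutant (SE, adjusted p = 0.0294 and 0.000239). The wild-type step of RPC31 was 0.08 as deposited (adjusted p = 0.778) and 0.29 under cyclic loess (adjusted p = 0.279). Against 36 to 60 h it was 0.30 (adjusted p = 0.108), and it did not pass without 24 or 36 h (adjusted p of up to 0.0745). RPC34 was 9.28 at 12 h and 8.55 to 9.21 later in the wild type, a step of 0.40 ± 0.18 that did not pass (SE, adjusted p = 0.0684). This step passed with median centring, at 0.58, but not as deposited or with cyclic loess. It also passed without 24 h, at 0.57, against all later times, at 0.45, and against 36 to 60 h, at 0.57. Mutant RPC34 was 10.22 and then 9.08 to 9.58, a step of 0.75 ± 0.18 (SE, adjusted p = 0.0025).

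The remaining polymerase III subunits act in termination and reinitiation. RPC53 went from 8.74 to between 7.29 and 8.08 (median 7.53) in the wild type and from 8.97 to between 7.70 and 8.14 (median 7.92) in the mutant. Its steps were 0.85 ± 0.18 and 0.99 ± 0.18 (SE, adjusted p = 0.000884 and 0.000245), and the wild-type step was 0.44 in the deposited values (adjusted p = 0.121). RPC37, its partner, was 9.73 at 12 h in the wild type and 9.74, 9.66 and 9.82 at 24, 36 and 48 h, so that no drop was seen over these arrays. The wild-type step of RPC37 was -0.02 ± 0.21 (SE, adjusted p = 0.954). Its mutant step of 0.50 ± 0.21 (SE, adjusted p = 0.0478) did not pass with any other scaling or without 24, 36, 72, 84 or 96 h (adjusted p of up to 0.165). RPC11, the cleavage subunit that corresponds to RPA12, was 10.40 at 12 h and 9.91 to 10.66 later in the wild type (median 10.26). In the mutant RPC11 dropped from 10.996 to between 9.77 and 10.01 (median 9.94), so that the 12 h array was alone at the top of that strain. The RPC11 steps were -0.06 ± 0.13 (SE, adjusted p = 0.701) and 1.05 ± 0.13 (SE, adjusted p = 8.24e-06).

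**Figure D3:**
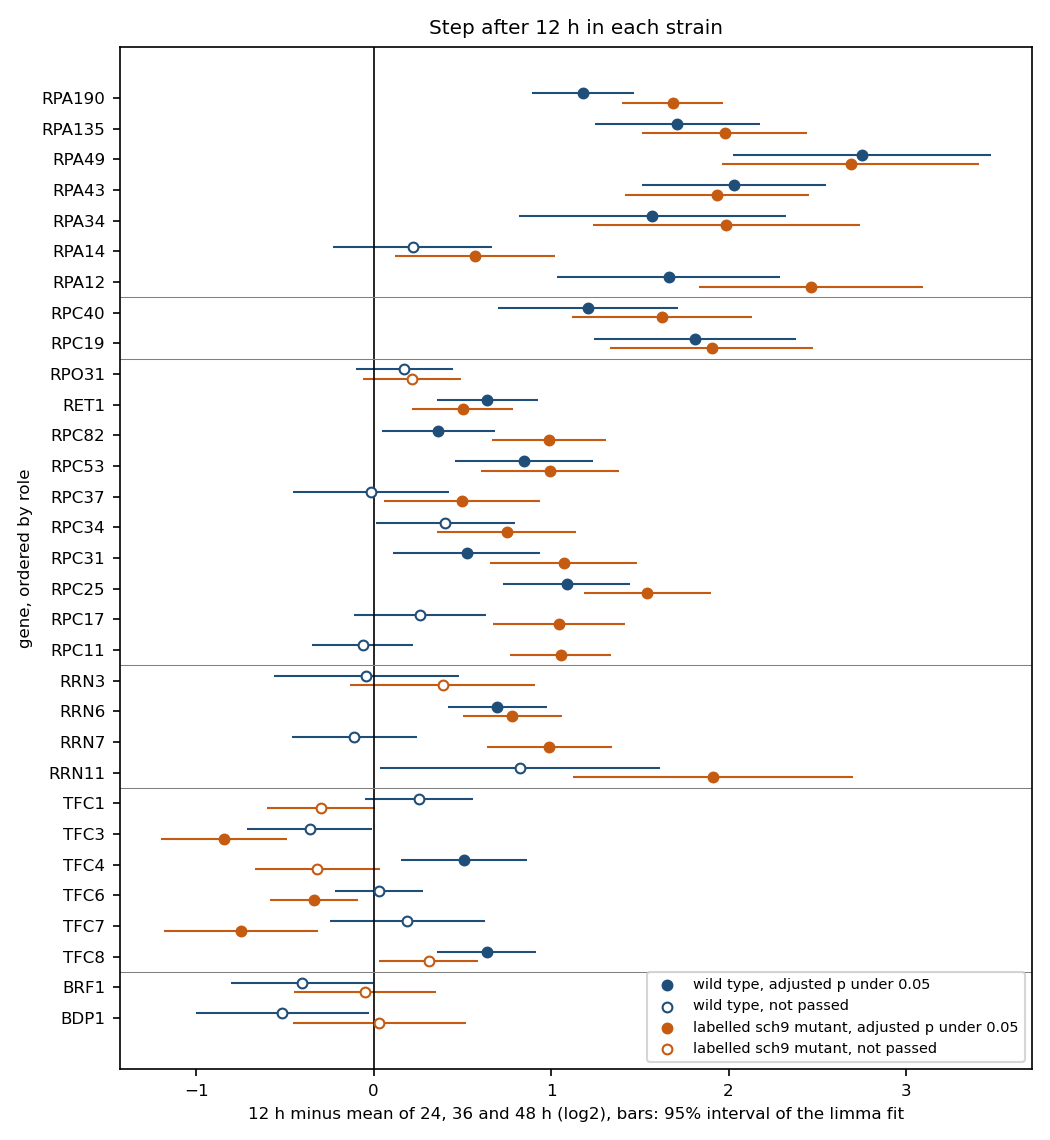
Step after 12 h of each of the 31 genes, as the 12 h array minus the mean of 24, 36 and 48 h on the log2 scale, blue for the wild type and orange for the labelled sch9 mutant. Points are limma estimates, filled where the adjusted p is under 0.05, and bars are 95% intervals. RPA49 lies furthest to the right in both strains, and TFC3 and TFC7 furthest to the left in the mutant.

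Set side by side with their counterparts, the polymerase I subunits had the larger steps in 6 of 7 pairs in both strains. RPA190 exceeded RPO31 by 1.01 in the wild type and 1.47 in the mutant, and RPA135 exceeded RET1 by 1.07 and 1.48. RPA12 exceeded RPC11 by 1.72 and 1.41, RPA49 exceeded RPC37 by 2.77 and 2.19, RPA34 exceeded RPC53 by 0.72 and 0.99, and RPA43 exceeded RPC25 by 0.95 and 0.39. The exception was RPA14, whose step minus that of RPC17 was -0.04 in the wild type and -0.47 in the mutant. These differences are between probe sets and carry no test. RPA43 and RPA190 are neighbours in the annotation with their starts facing each other, and both dropped after 12 h. Over the 9 later wild-type arrays their levels had a correlation of -0.57, and over the 8 later mutant arrays 0.21, a description over arrays of a single culture each.

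Among the initiation factors of polymerase I, the core factor subunits dropped in the mutant and RRN3 did not pass. RRN3 encodes the factor that must bind the enzyme for it to start. Its signal was 9.93 at 12 h and 9.26 to 10.40 later in the wild type (median 9.50), and 10.38 and then 9.90 to 10.26 in the mutant (median 10.10). The RRN3 steps were -0.04 ± 0.24 and 0.39 ± 0.24 (SE, adjusted p = 0.894 and 0.183). RRN6, a core factor subunit, went from 9.37 to between 8.60 and 8.88 in the wild type and from 9.64 to between 8.67 and 9.14 in the mutant. Its steps were 0.70 ± 0.13 and 0.78 ± 0.13 (SE, adjusted p = 0.000313 and 0.000114). In the deposited values the wild-type step of RRN6 did not pass.

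RRN7, the core factor subunit related to TFIIB, behaved differently in the strains. Its wild-type signal was 8.88 at 12 h and 8.69 to 9.19 later (median 9.13), a step of -0.11 ± 0.17 (SE, adjusted p = 0.584). In the mutant RRN7 dropped from 9.18 to between 8.10 and 8.61 (median 8.32), a step of 0.99 ± 0.17 (SE, adjusted p = 0.000112). RRN11, the last core factor subunit, went from 9.71 to between 8.08 and 9.09 (median 8.57) in the wild type, a step of 0.83 ± 0.37 that did not pass (SE, adjusted p = 0.064). The wild-type step of RRN11 passed against all later times, at 1.11, and against 36 to 60 h, at 0.87, but with none of the other scalings. Its mutant levels went from 10.08 to between 7.82 and 8.89 (median 8.28), a step of 1.91 ± 0.37 (SE, adjusted p = 0.000383).

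Among the TFIIIC genes TFC3, TFC6 and TFC7, 3 of the 6, were lower at 12 h than at 24 to 48 h in the mutant and none was higher, with a median step of -0.33, against 27.2% and 32.7% of all genes. TFC4 and TFC8, 2 of the 6, were higher at 12 h in the wild type and none was lower, with a median of 0.22, against 33.6% and 28.7% of all genes, so the wild-type share was near the background. TFC3, which binds the B box of the promoter, was 9.39 at 12 h in the mutant and 9.86 to 10.39 later (median 9.99), a step of -0.84 ± 0.17 (SE, adjusted p = 0.000448). Wild-type TFC3 was 9.70 and then 9.38 to 10.16 (median 9.83), a step of -0.36 ± 0.17 that did not pass (SE, adjusted p = 0.07) but did with cyclic loess, at -0.40 (adjusted p = 0.0489). TFC7 was 8.95 at 12 h in the mutant and 9.34 to 10.04 later (median 9.53), with the highest level at 24 h and a step of -0.75 ± 0.20 (SE, adjusted p = 0.00519). TFC6, which binds the B box together with TFC3, had a mutant step of -0.34 ± 0.12 (SE, adjusted p = 0.0204), which without 48 h was -0.26 and did not pass (adjusted p = 0.053).

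TFC4, the subunit that recruits TFIIIB, was 9.73 at 12 h and 9.01 to 9.66 later in the wild type (median 9.37). In the mutant TFC4 was 9.72 and then 9.74 to 10.09 (median 9.97), so that the strains started level and separated. Its steps were 0.51 ± 0.17 (SE, adjusted p = 0.0145) and -0.32 ± 0.17 (SE, adjusted p = 0.111). TFC8, which bridges TFIIIC and TFIIIB, had a wild-type step of 0.64 ± 0.13 (SE, adjusted p = 0.00065) and a mutant step of 0.31 ± 0.13 (SE, adjusted p = 0.0526), which passed as higher without 36 h, at 0.35 (adjusted p = 0.0246), and against all later times, at 0.37 (adjusted p = 0.0147). The wild-type steps of TFC4 and TFC8 did not pass in the deposited values. TFC1, which contacts the A box, had steps of 0.26 ± 0.14 and -0.30 ± 0.14, neither of which passed (SE, adjusted p = 0.129 and 0.0866). With the other 3 scalings the mutant step of TFC1 passed as lower, at -0.38 to -0.49.

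Neither TFIIIB gene passed for the step in either strain after quantile normalization. BRF1, the TFIIB-related subunit, was 9.53 at 12 h in the wild type, 10.03 and 10.11 at 24 and 36 h, and 9.04 to 9.66 after that. The BRF1 steps were -0.40 ± 0.19 and -0.05 ± 0.19 (SE, adjusted p = 0.0734 and 0.837). BDP1, the subunit that completes the complex on DNA, was 9.23 at 12 h in the wild type and reached 9.92 and 10.02 at 36 and 48 h. In the mutant it stayed between 8.71 and 9.10 in all 9 arrays, and its steps were -0.51 ± 0.23 and 0.03 ± 0.23 (SE, adjusted p = 0.0619 and 0.912). Both passed as lower at 12 h in the wild type as deposited, at -0.92 for BRF1 and -0.995 for BDP1 (adjusted p = 0.000941 and 0.00221), and under cyclic loess, at -0.51 and -0.75 (adjusted p = 0.0318 and 0.0239). BRF1 also passed without 48 h and BDP1 without 24 h, at -0.54 and -0.75, while BRF1 was 0.10 against all later times (adjusted p = 0.626).

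The step itself differed between the strains for 6 of the 31 genes. It was larger in the mutant for 4 and smaller for 2, against 12.2% and 13.0% of all genes tested, so the share was near the background. RPC11 differed by 1.12 ± 0.19 (SE, adjusted p = 0.00091) and RRN7 by 1.10 ± 0.23 (SE, adjusted p = 0.00409). Both passed with every scaling and with each time but 12 h left out. The 12 h arrays, on which the steps rest, cannot be left out. The stationary phase markers also read lower in the mutant at 12 h, so culture state and strain cannot be told apart in the step differences. RPC17 differed by 0.79 ± 0.25 (SE, adjusted p = 0.0314) and RPC82 by 0.62 ± 0.21 (SE, adjusted p = 0.0429). Neither of these passed with median centring, and RPC17 did not pass without 36, 72 or 96 h (adjusted p of up to 0.0739), nor RPC82 without any of 6 times (adjusted p of up to 0.0667). TFC7 differed by -0.94 ± 0.29 (SE, adjusted p = 0.0284) and TFC4 by -0.83 ± 0.23 (SE, adjusted p = 0.0197), and neither passed in the deposited values. Without 72 h TFC7 did not pass (adjusted p = 0.0505). In the deposited values 12 genes had the larger step in the mutant and 0 the smaller, and 89.9% of all calls were of the first kind, against 48.5% after quantile normalization.

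None of the 7 polymerase I subunits passed for a difference in step, although their estimates ran from -0.10 for RPA43 to 0.80 for RPA12. The 95% interval was -0.83 to 0.64 for RPA43 and -0.09 to 1.69 for RPA12. For RPA190 the estimate was 0.51 ± 0.19 (SE, adjusted p = 0.0635), with an interval of 0.10 to 0.91. It passed against all later times, at 0.54 (adjusted p = 0.0388), and in the deposited values (adjusted p = 0.00325).

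Over the 9 shared times the labelled mutant had higher levels of 14 of the 31 genes and lower levels of 3, and 14 did not pass. Among all genes tested 32.4% were higher and 26.8% lower. The median difference of the 31 genes was 0.18, against 0.03 over all genes. The 14 comprised 4 polymerase I subunits, 3 polymerase III subunits, 2 initiation factors of polymerase I, 4 TFIIIC genes and BRF1. The 3 that were lower were RPC31, RRN7 and BDP1. Without the time blocks 6 were higher and 3 lower, and 6 and 4 when the 3' minus 5' signal of control genes, a measure of RNA quality, was added to the fit. Without the times from 84 h on 5 and 3 passed. Over all 5449 genes 1767 were higher with the time blocks and 1286 without them. With the control signal in the fit 1457 of all genes were higher, and without the times from 84 h on 1299. In these 3 settings the share of higher genes was therefore smaller among the 31 than among all genes. RPA135, RPA12, RPC53, RPC25, RRN6 and BRF1 did not pass under any of these 3 settings. RPA49 did not pass without the blocks or with the control signal, RPA43 without the blocks, RRN3 with the control signal or without the late times, and TFC1 and TFC7 without the late times. With the deposited values 66.3% of all calls were of higher genes and with median centring 38.8%, against 54.8% here.

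The largest positive strain differences among the 31 genes were in TFIIIC and in the polymerase III trimer. TFC4 was higher in the mutant at 8 of 9 times, with differences from -0.01 at 12 h to 0.96 at 48 h and a mean of 0.57 ± 0.28 (SD, n = 9, limma adjusted p = 0.000322). TFC6 differed by -0.08 at 12 h and by up to 0.93 at 84 h, with a mean of 0.52 ± 0.34 (SD, n = 9, limma adjusted p = 0.00152). The TFC7 difference ran from -0.31 at 12 h to 1.19 at 24 h, with a mean of 0.42 ± 0.39 (SD, n = 9, limma adjusted p = 0.00974). For TFC4, TFC6 and TFC7 the 12 h difference was the lowest and the 8 later ones were all above 0. TFC1 followed at 0.23 ± 0.24 (SD, n = 9, limma adjusted p = 0.0316), and did not pass with cyclic loess (adjusted p = 0.12) or without 24, 36, 48, 60, 72 or 108 h (adjusted p of up to 0.071). TFC3 at 0.15 and TFC8 at 0.03 did not pass (adjusted p = 0.129 and 0.809).

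RPC34 and RPC31, partners in the trimer, differed in opposite directions. RPC34 was higher in the mutant at all 9 times, by 0.25 to 0.94, with a mean of 0.54 ± 0.24 (SD, n = 9, limma adjusted p = 0.000254). RPC31 was lower at 8 of 9 times, with differences from -0.99 at 60 h to 0.06 at 12 h and a mean of -0.51 ± 0.31 (SD, n = 9, limma adjusted p = 0.00102). In the deposited values RPC31 did not pass. RPC82, which joins them, differed by -0.03 and did not pass (adjusted p = 0.745, 95% interval -0.22 to 0.15). RPC53 at 0.26 and RPC25 at 0.27 were the other polymerase III genes that passed as higher (adjusted p = 0.0088 and 0.027). RPC53 was -0.054 with median centring and did not pass in the deposited values (adjusted p = 0.125), and RPC25 did not pass with cyclic loess or without 12, 36, 48, 72 or 84 h (adjusted p of up to 0.0758). RPO31, RET1, RPC37, RPC17 and RPC11 did not pass, with estimates from -0.26 for RPC11 to 0.18 for RPC17. Without 12 h, where it was 0.59 higher in the mutant, RPC11 passed at -0.37 (adjusted p = 0.0014).

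RRN7 and BDP1 were the genes of the 31 most clearly lower in the mutant. RRN7 was lower at the 8 times from 24 h on, with differences of -1.01 to -0.40, and higher by 0.30 at 12 h. Its mean difference was -0.64 ± 0.41 (SD, n = 9, limma adjusted p = 0.000976). BDP1 was lower at all 9 times, with differences of -1.28 to -0.17 and a mean of -0.61 ± 0.36 (SD, n = 9, limma adjusted p = 0.000716). Its largest differences fell at 36 and 48 h, when the wild-type level was at its highest. BRF1, which binds beside BDP1, was higher by 0.34 ± 0.24 (SD, n = 9, limma adjusted p = 0.00393) and RRN6, of the core factor with RRN7, by 0.21 ± 0.14 (SD, n = 9, limma adjusted p = 0.0107). RRN3 was higher by 0.41 ± 0.39 (SD, n = 9, limma adjusted p = 0.0107), with the mutant above the wild type at 7 times and below it at 36 and 48 h. RRN11 at -0.28 did not pass (adjusted p = 0.116), and passed without 12 h at -0.35 (adjusted p = 0.0434).

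**Figure D4:**
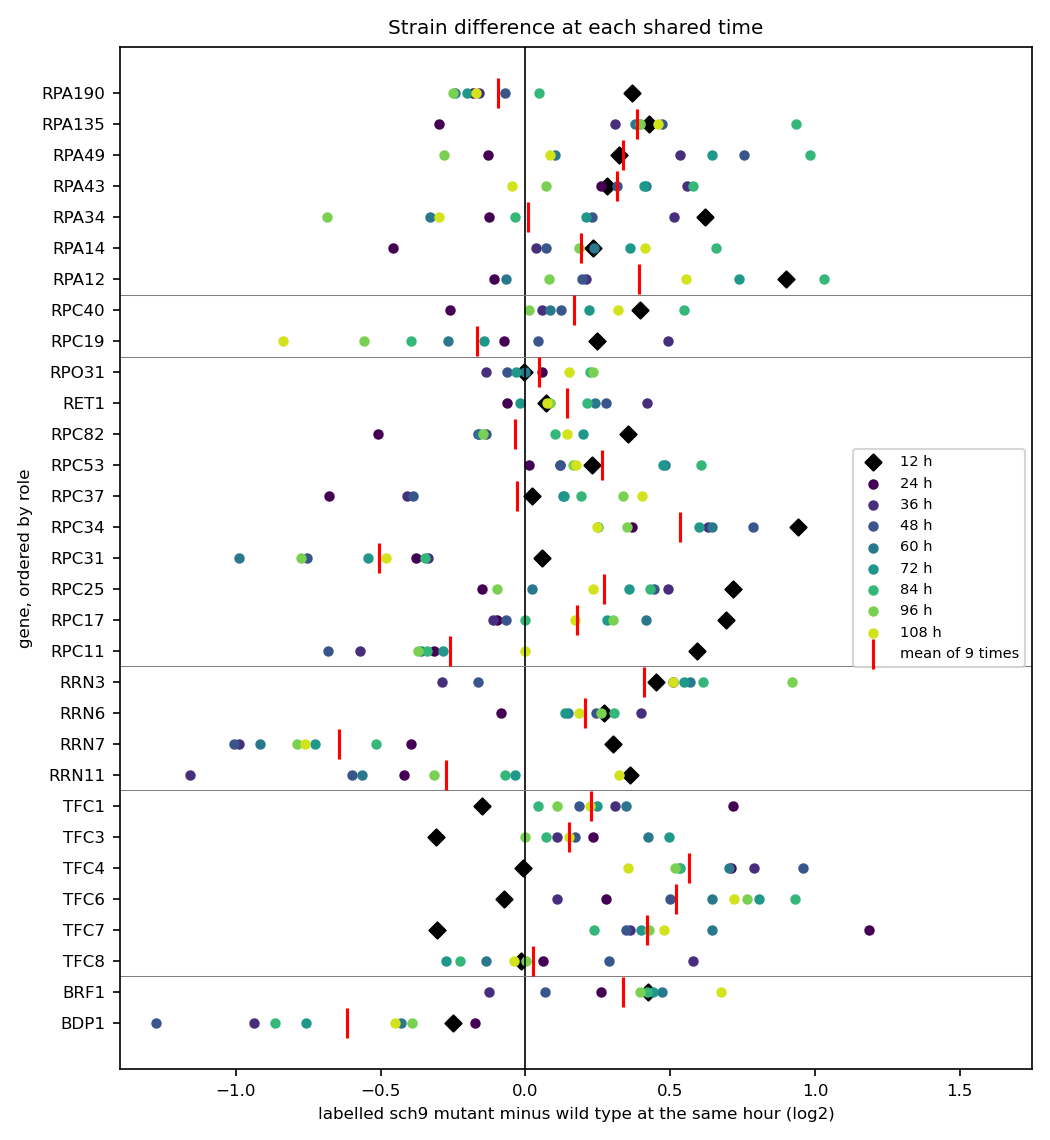
Difference between the labelled sch9 mutant and the wild type at each of the 9 shared times for the 31 genes, in log2 units, with the 12 h difference as a black diamond, later times as coloured dots and the mean as a red bar. Diamonds lie at the right of the dots for RPA190, RRN7 and RPC11 and at their left for TFC3, TFC4, TFC6 and TFC7.

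For polymerase I itself, RPA135 and RPA12 were higher in the mutant by 0.39 each, RPA49 by 0.34 and RPA43 by 0.32. RPA135 was higher at 8 of 9 times, from -0.30 at 24 h to 0.93 at 84 h (SD 0.31, n = 9, limma adjusted p = 0.00585). With the 3' minus 5' signal in the fit it was 0.18 (adjusted p = 0.156). RPA43 was higher at 8 of 9 times, from -0.05 at 108 h to 0.58 at 84 h (SD 0.21, n = 9, limma adjusted p = 0.00328), and did not pass with median centring. RPA12 was higher at 7 of 9 times (SD 0.42, n = 9, limma adjusted p = 0.0201) and did not pass without 72 h, at 0.35 (adjusted p = 0.0521). RPA49 was higher at 7 of 9 times (SD 0.43, n = 9, limma adjusted p = 0.0402) and did not pass with median centring, at 0.23 (adjusted p = 0.223), with cyclic loess, at 0.25 (adjusted p = 0.148), or without 12, 36, 48, 72 or 84 h (adjusted p of up to 0.0976). RPA190 at -0.10, RPA34 at 0.01 and RPA14 at 0.19 did not pass, nor did RPC40 at 0.17 and RPC19 at -0.17 (adjusted p of 0.0949 to 0.951). RPA190 was 0.37 higher in the mutant at 12 h and lower at 7 of the 8 later times, and without 12 h it passed as lower at -0.15 (adjusted p = 0.0247).

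By time, 23 of the 31 genes were higher in the mutant at 12 h and 12 at 24 h, with median differences of 0.28 and -0.10. From 36 h on between 19 and 22 were higher, with medians of 0.08 to 0.25. Over all genes between 50.2% and 55.5% were higher in the mutant at these times. At 12 h the stationary phase markers also differed between the strains, and the part of culture state in the 12 h differences was not tested. The 24 h mutant array also had the highest 3' minus 5' signal of the control genes among the mutant arrays, 1.06 against 0.73 to 0.95 in the others, and low rRNA signals, and the part of these in the 24 h differences was not tested.

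Within the later culture, from 24 to 48 h to 96 h and later, few of the genes changed in the mutant. Wild-type levels rose for 2 and fell for 8, against 20.7% and 20.3% of all genes. In the mutant 1 rose and 1 fell, against 8.41% and 7.38%. The late change differed between the strains for 3 genes, all with the higher value in the mutant, against 12.8% higher and 13.1% lower over all genes. These calls depended on the scaling: in the deposited values 0 rose and 16 fell in the wild type. Of all wild-type calls 6.20% were rises there and 67.7% with median centring, against 50.5% here, and of the calls for the difference 92.9% and 34.5% were higher, against 49.5%. The wild-type arrays from 60 h on had 3' minus 5' signals of 1.09 to 1.44, against 0.80 to 0.87 before, and the part of this in the late changes was not tested.

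BRF1, RPC37 and RPC11 fell in the wild type with every scaling and with each time left out. BRF1 fell from 10.03, 10.11 and 9.66 at 24, 36 and 48 h to 9.15, 9.11 and 9.04 at 96, 108 and 120 h, a change of -0.83 ± 0.13 (SE, adjusted p = 0.000267). In the mutant BRF1 went from 10.29, 9.98 and 9.73 to 9.54 and 9.78, which did not pass (-0.34 ± 0.15, SE, adjusted p = 0.137). RPC37 fell from 9.74, 9.66 and 9.82 to 8.93, 9.14 and 8.76, a change of -0.80 ± 0.15 (SE, adjusted p = 0.000671), and the groups did not overlap. In the mutant RPC37 was 9.07, 9.25 and 9.43 and then 9.27 and 9.54, and the late changes of RPC37 differed between the strains by 0.95 ± 0.22 (SE, adjusted p = 0.0068). RPC11 fell by 0.41 on the log2 scale (SE 0.09, adjusted p = 0.00344), from 10.29, 10.45 and 10.66 to 10.14, 9.91 and 10.12.

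The other wild-type falls rested on fewer arrays. BDP1 fell by 0.56 on the log2 scale and RRN3 by 0.58 (adjusted p = 0.0124 and 0.0146), and neither passed without 36, 96 or 120 h (adjusted p of up to 0.0733 and 0.0879). RRN11 at -0.70, RPC53 at -0.34 and TFC6 at -0.28 (adjusted p = 0.0438, 0.0437 and 0.0133) did not pass with median centring or cyclic loess, and RPC53 was 0.10 with median centring. Each of these also missed the threshold with some times left out, such as 96 h (adjusted p of up to 0.149, 0.192 and 0.0562). RET1 rose by 0.48 ± 0.09 in the wild type (SE, adjusted p = 0.00113), from 10.99, 10.69 and 10.87 to 11.27, 11.37 and 11.36, but not in the deposited values. The rise of TFC8 by 0.28 (adjusted p = 0.0251) was -0.019 in the deposited values and did not pass without 36, 48, 96, 108 or 120 h (adjusted p of up to 0.142). In the mutant RET1 rose by 0.34 and TFC1 fell by 0.38 on the log2 scale (adjusted p = 0.0426 and 0.0352). RET1 missed the threshold there with 8 of the later times left out in turn and TFC1 with 5, with adjusted p of up to 0.25 and 0.282. RRN3 and TFC6 had the higher late change in the mutant, by 0.76 ± 0.26 and 0.42 ± 0.12 (SE, adjusted p = 0.0422 and 0.0219), and missed the threshold with 8 and 3 of the times left out. RRN3 also missed it with cyclic loess and TFC6 with median centring (limma adjusted p = 0.052 and 0.127).

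In the later mutant culture several polymerase I genes moved together from array to array. Between 84 and 96 h 7 of the 31 genes were lower by over 0.5 and none was higher by as much, while 5.6% of all genes were that much lower. These were RPA49, RPA43, RPA34, RPA12, RPC40, RPC19 and RRN11. RPA49 went from 9.17 to 7.92, RPA34 from 10.33 to 9.21, RPA12 from 10.10 to 9.28 and RRN11 from 8.89 to 7.82. Between 60 and 72 h RPA49, RPA34, RPA12 and RRN11 were higher by over 0.5, as were 3.6% of all genes, and between 96 and 108 h RPA34 and RRN11, as were 2.13%. Each such move sets 1 array against 1 other, so it has no replicate check and no test.

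Of the 5 subunits that all 3 nuclear polymerases share, 3 dropped after 12 h in the wild type and 5 in the mutant, against 33.6% and 32.7% of all genes. RPB5, RPO26 and RPB8 had wild-type steps of 1.06, 1.17 and 1.51, and RPC10 and RPB10 at 0.25 and 0.01 did not pass (adjusted p = 0.0989 and 0.959). The median step of the 5 in the mutant was 1.69. Of the 7 subunits found in polymerase II alone, the wild type had 3 higher and 2 lower at 12 h (median step 0.25), and the mutant had 4 higher (median step 0.63). Over all genes 33.6% were higher and 28.7% lower in the wild type, and 32.7% and 27.2% in the mutant. RPB4 and RPB7, the polymerase II stalk, were the 2 that were lower in the wild type, at -0.91 and -0.35. None of the 5 common subunits was higher in the mutant over the shared times and 2 were lower, against 32.4% and 26.8% of all genes. The 2 were RPB5 at -0.37 and RPB8 at -0.24 (limma adjusted p = 0.0237 and 0.0129).

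Of 9 further factors of both systems, 3 were higher and 1 lower at 12 h in the wild type, against 33.6% and 28.7% of all genes, and 5 and 0 in the mutant, against 32.7% and 27.2%. NET1, which tethers nucleolar proteins to rDNA and stimulates polymerase I, had steps of 0.84 and 0.56, and PZF1, the TFIIIA of the smallest rRNA gene, 0.75 and 0.90 (adjusted p = 7.15e-06, 0.000277, 0.00387 and 0.000979). Over the shared times 2 were higher in the mutant and 3 lower, against 32.4% and 26.8% of all genes. UAF30 was higher by 0.54 and RRN5 lower at -0.54 (adjusted p = 0.000124 and 0.000787), both of the upstream activation factor of the rDNA promoter. SPT15, the TATA-binding protein that is also part of TFIIIB, was lower at -0.52 (adjusted p = 0.00165). RRN10, a further subunit of the upstream activation factor, fell late in the wild type by 0.93 on the log2 scale (adjusted p = 3.3e-05).

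**Figure D5:**
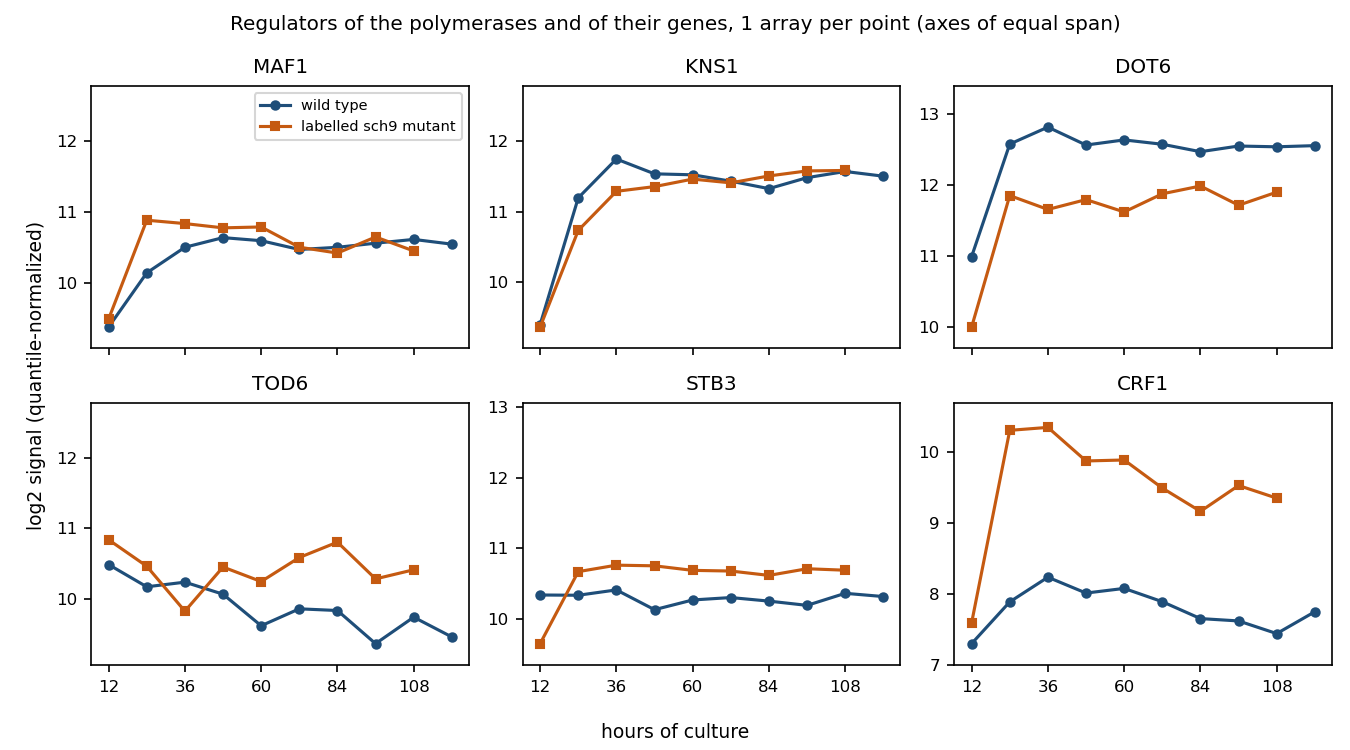
Log2 signal (quantile-normalized) against hours of culture for MAF1, KNS1, DOT6, TOD6, STB3 and CRF1, 1 array per point, blue circles for the wild type and orange squares for the labelled sch9 mutant, on axes of equal span. MAF1, KNS1 and DOT6 are lowest at 12 h in both strains, and CRF1 lies higher in the mutant from 24 h on.

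Among 14 regulators of the polymerases and of their genes, 3 were higher and 5 lower at 12 h in the wild type and 6 and 5 in the mutant. These shares were near those of all genes, 33.6% and 28.7% in the wild type and 32.7% and 27.2% in the mutant. MAF1, the repressor of polymerase III, was 9.38 at 12 h and 10.15 to 10.64 later in the wild type, and 9.50 and then 10.43 to 10.89 in the mutant. Its steps were -1.05 ± 0.17 and -1.34 ± 0.17 (SE, adjusted p = 7.55e-05 and 7.63e-06). KNS1, a kinase that acts on polymerase III through Rpc53, had steps of -2.08 ± 0.21 and -1.75 ± 0.21, and DOT6, a repressor of ribosome biogenesis genes, -1.66 ± 0.14 and -1.77 ± 0.14 (SE). In both strains these 3 genes were low at 12 h and high afterwards. The arrays measure their RNA and not their phosphorylation, through which Sch9 acts on Maf1, Dot6, Tod6 and Stb3. The regulator counts for the strain difference were 7 higher and 2 lower, against 32.4% and 26.8% of all genes.

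The repressors on which Sch9 acts differed between the strains in unlike ways. DOT6 was lower in the mutant, at -0.81 ± 0.07 (SE, adjusted p = 1.17e-05), and TOD6, its paralog, was higher by 0.50 ± 0.13 (SE, adjusted p = 0.00501). STB3 was 9.66 at 12 h in the mutant and 10.62 to 10.76 later, against 10.14 to 10.41 in all 10 wild-type arrays. Its step differed between the strains by -1.12 ± 0.16 (SE, adjusted p = 0.000234). CRF1, a corepressor of ribosomal protein genes, was higher in the mutant by 1.72 ± 0.17 (SE, adjusted p = 1.94e-05), and at 12 h its levels were 7.30 in the wild type and 7.59 in the mutant. MAF1 at 0.16 and KNS1 at -0.10 did not pass for the strain difference (adjusted p = 0.143 and 0.275). Of the subunits of casein kinase II, which activates polymerase III, CKB1, CKA2 and CKB2 were higher in the mutant by 0.67, 0.43 and 0.26, and CKA1 was lower at -0.22 (adjusted p of 1.52e-05 to 0.0221).

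The RNAs that the enzymes make had no measured gene among the 5449. Control probe sets for rRNA were on the array and are given here in deposited values. The probe set at the 3' end of the small-subunit rRNA read 8.35 at 12 h in the wild type and 14.64 at 120 h, and between 6.69 and 7.68 in the mutant arrays. At its 3' end the large-subunit rRNA read higher in the mutant at all shared times but 24 h, such as 11.75 against 10.67 at 108 h. From 12 to 120 h in the wild type this probe set fell from 11.51 to 10.48. The large-subunit 5' end went from 7.82 to 9.04 there and its middle from 8.78 to 8.95. The small-subunit 5' end went from 12.22 to 14.41, its middle from 11.21 to 14.64, and the 5.8S rRNA from 9.52 to 13.43. The 3' minus 5' signal of the control genes went from 0.80 to 1.44 over the same wild-type arrays. Unlike its 3' end, the large-subunit 5' end read lower in the mutant at all shared times, such as 7.24 against 9.12 at 108 h. Its middle was higher in the mutant at 12 h, 9.36 against 8.78, and lower at 108 h, 8.52 against 9.12. At 108 h the mutant also read lower for the small-subunit 5' end, 11.58 against 14.41, and the 5.8S rRNA, 9.93 against 13.43. The part of RNA quality in the rRNA signal was not tested, and no test was made of what either says about rRNA synthesis.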

How the data were processed

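The authors deposited log2 signals per probe set, from 5.76 to 15.02 with column medians of 9.44 to 10.05. No source used here names the program, background correction or normalization that gave them. Of 5814 probe sets, 51 controls and 265 without a gene name were left out. The other 5498 were named from the platform annotation, and for 47 genes with several probe sets the brightest was kept, which gave 5449 genes. Their values were quantile-normalized. Tests used limma 3.58.1 (R 4.3.3) on all genes: the strain difference over 9 shared times with time as a block, and the steps and late changes in 1 fit of all 19 arrays grouped by strain and phase (12 h, 24 to 48 h, 60 to 84 h, 96 h and later). P-values carry the Benjamini-Hochberg adjustment over all genes. The procedure was tested on simulated data. Alternatives were array weights, a robust prior, cyclic loess, median centring, the values as deposited, a filter on dim genes, other reference times, a linear trend, a covariate and leaving out each time. The genes, the lists of related factors, regulators, products, stationary phase, mating type and meiosis markers, and the tests were chosen with earlier results of these data known. All 31 genes are named. Of the other lists some genes per comparison are named, not always those with the smallest p, and of the regulators any. Promoter motifs and sequences were not used here.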

Additional observations from a re-analysis of the deposited data

Results flagged for a closer look

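In 30 of 93 series (the levels of 31 genes in each strain and their strain differences) the highest or lowest array stood apart from the others by Dixon's criterion at 95%. Chance alone flags about 1 in 20 such groups. Times are not replicates, and 27 of the 30 are the 12 h level, which belongs to another phase of the culture. In the mutant these were RPA190 at 11.49, RPA135 at 12.34, RPA49 at 11.11, RPA43 at 10.16, RPA34 at 11.85, RPA12 at 11.60, RPC40 at 11.76 and RPC19 at 11.80. Of polymerase III they were RPC82 at 9.95, RPC53 at 8.97, RPC34 at 10.22, RPC31 at 9.75, RPC25 at 10.78, RPC17 at 9.61 and RPC11 at 10.996, and of the core factor RRN6 at 9.64, RRN7 at 9.18 and RRN11 at 10.08. In the wild type they were RPA190 at 11.12, RPA135 at 11.91, RPA49 at 10.78, RPA43 at 9.88, RPA12 at 10.70, RPC40 at 11.36, RPC19 at 11.55, RPC25 at 10.06 and RRN6 at 9.37. All of these lay above the other arrays of their strain.

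The strain difference stood apart at 12 h for RPA190, at 0.37, and for RRN7, at 0.30, where the mutant was higher than the wild type, and at 24 h for RPA135, at -0.30.

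The step after 12 h differed between the strains in the limma fit for RPC82 by 0.62, RPC17 by 0.79, RPC11 by 1.12 and RRN7 by 1.10, with the larger step in the mutant, and for TFC4 by -0.83 and TFC7 by -0.94. The late change differed for RPC37 by 0.95, RRN3 by 0.76 and TFC6 by 0.42, with the higher value in the mutant.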

How the results depend on the processing

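Counts of the 31 genes, given as higher and lower, moved as follows. For the strain difference the 14 and 3 became 6 and 3 without time blocks, 5 and 3 without the times from 84 h on, 6 and 4 with the 3' minus 5' control signal in the fit, 18 and 6 with array weights, and 10 and 1 without dim genes. Over all genes the higher count went from 1767 to 1286, 1299 and 1457 in the first 3 of these settings. The lower count went from 1458 to 1877 with array weights and to 1126 of 4087 genes without dim genes. For the wild-type step the 16 and 0 became 9 and 8 in the deposited values, 14 and 3 with cyclic loess, 20 and 5 with array weights, 10 and 0 without dim genes, and 17 and 1 against 36 to 60 h. Over all genes the 1833 and 1564 became 756 and 2537 as deposited and 1651 and 1673 with cyclic loess. The lower count was 2088 with array weights and 1627 against 36 to 60 h, and the higher count was 1323 without dim genes. For the mutant step the 21 and 3 became 13 and 3 without dim genes and 23 and 5 with array weights. Over all genes the higher count went from 1780 to 1306 without dim genes, and the lower count from 1482 to 1914 with array weights. For the step difference the 4 and 2 became 12 and 0 as deposited, 2 and 4 with median centring, 12 and 5 with array weights, and 2 and 2 without dim genes. Over all genes the 665 and 706 became 1730 and 195 as deposited, 487 and 679 with median centring and 1614 and 1622 with array weights. Without dim genes 541 were higher. For the wild-type late change the 2 and 8 became 0 and 16 as deposited, 4 and 5 with median centring, 3 and 5 with cyclic loess, 10 and 12 with array weights, 1 and 6 without dim genes, and 1 and 5 with a linear trend. Over all genes the 1128 and 1106 became 152 and 2301, 1730 and 826, and 1221 and 1031 with these 3 scalings. They became 1131 and 1131 with the linear trend. The higher count was 2258 with array weights and 881 without dim genes. For the mutant late change the 1 and 1 became 1 and 0 as deposited, 0 and 1 with cyclic loess and with the robust prior, and 3 and 3 with array weights and with a linear trend. Over all genes the 458 and 402 became 316 and 199 as deposited and 352 and 337 with cyclic loess. They became 912 and 884 with array weights and 785 and 779 with the linear trend, and 452 were higher with the robust prior. For the late difference the 3 and 0 became 9 and 0 as deposited, 9 and 8 with array weights, and 3 and 2 with a linear trend. Over all genes the 700 and 713 became 1776 and 136 as deposited and 1512 and 1610 with array weights, and 937 were lower with the linear trend. With each time left out in turn the ranges were 10 to 16 and 3 to 6 for the strain difference, 14 to 17 and 0 to 2 for the wild-type step, 20 to 21 and 3 to 3 for the mutant step, 2 to 5 and 1 to 3 for the step difference, 1 to 4 and 3 to 8 for the wild-type late change, 0 to 1 and 0 to 4 for the mutant late change, and 1 to 6 and 0 to 4 for the late difference. The ranges for the steps and for their difference hold no fit without 12 h. Counts over all genes are not given for the ranges with a time left out. The SCH9 difference was -0.39 as deposited, with an exact permutation p of 0.109.

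Of 3657 recomputed estimates for single genes, 148 had the opposite sign, 38 of them in the deposited values, 17 with median centring and 14 with array weights, and 139 of the 148 passed neither before nor after. The 9 that passed before or after were RPC53 at -0.054 for the strain difference with median centring, RPO31 at -0.48, RPC82 at -0.051 and TFC6 at -0.34 for the wild-type step as deposited, and RET1 at 0.58 for the step difference as deposited. The others, for the wild-type late change, were RPA190 at -0.38 and TFC8 at -0.019 as deposited, RPA135 at 0.17 with array weights, and RPC53 at 0.10 with median centring. The cause was not tested, except that dropping dim genes leaves 4087 genes and removes 9 of the 31.

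Of the called genes, 23 of 24 for the mutant step and 9 of 16 for the wild-type step passed in the same direction with all 3 other scalings. For the strain difference 11 of 17 did. Array weights are loosely determined in the phase fit, because each 12 h array is alone in its group, and their counts should be read with that in mind. The labels give no replicate numbers, so the strains were paired by hour, through the time blocks, and in no other way. A single array per strain and hour leaves the spread between cultures unmeasured.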
